A study of Homo sapiens with 12 samples.

Results

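The genes described here encode 9 surface antigens that have been studied as markers or antibody targets of pancreatic carcinoma: *CEACAM1*, *CEACAM5*, *CEACAM6*, *CEACAM7*, *PSCA*, *MSLN*, *TSPAN1*, *TSPAN8* and *CLDN18*. They were chosen by symbol and not by a rule on their values, although earlier results of these data were known. All 9 were found among the 23346 genes of the deposited expression table. Their RNA was followed across 4 groups made from SW1990 and CFPAC-1, both established human pancreatic adenocarcinoma cell lines. Cells of each line were stained with GCTM-5, a monoclonal antibody to an antigen complex found on the surface of pancreatic and biliary epithelial cells, and were sorted by flow cytometry. Per the labels the gates took strongly stained cells (SW1990 positive, CFPAC-1 positive) and unstained cells (SW1990 negative, CFPAC-1 negative), with 3 samples in each group and 12 in all. The study's methods speak of triplicate sorts of the parent lines and name no drug or genetic change in any group. The methods and the labels differ on the library kit (TruSeq against SureSelect strand-specific), on the label of the second antibody and on the medium.

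The carcinoembryonic antigen-related cell adhesion molecules (CEACAMs) are immunoglobulin-like proteins of the epithelial cell surface that bind one another between cells. CEACAM5 is carcinoembryonic antigen itself, a serum marker of gut and pancreatic tumours, and it is held in the outer membrane by a glycosylphosphatidylinositol (GPI) anchor, as are CEACAM6 and CEACAM7, whereas CEACAM1 crosses the membrane and signals through a cytoplasmic tail. PSCA (prostate stem cell antigen, of the LY6/uPAR family) and mesothelin (MSLN) are further GPI-anchored antigens, rare in normal pancreas and frequent in its carcinoma. TSPAN1 and TSPAN8 are tetraspanins, which cross the membrane several times and gather partner proteins into membrane domains and extracellular vesicles. Claudin 18 (CLDN18) is a tight junction protein of stomach and lung epithelium whose stomach form also appears in pancreatic tumours. The table gives 1 value per gene, so its isoforms could not be told apart.

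Values are RPKM, reads divided by gene length and by library size, so levels of different genes can be compared per length. Library totals recovered from the values ranged from 9969697 to 26159330 reads. The lowest was CFPAC-1 positive replicate 3, which also stood apart from its group: 269 of 13267 genes with a mean of at least 1 RPKM lay over 2-fold above both other samples of the group, against 25 to 99 in the other libraries. On the low side it did not stand alone: 191 genes lay over 2-fold below both other samples, against 49 to 216 in the other libraries. The counts were 216 in SW1990 positive replicate 1 and 192 in SW1990 negative replicate 2. Results that moved by over 1.5 times without CFPAC-1 positive replicate 3 are given with and without it. GCTM-5 binds a glycosylated complex that is not tied to 1 gene here, so no transcript level checks the sort itself. Epithelial markers (*EPCAM*, *CDH1*, *KRT7*, *KRT8*, *KRT18* and *KRT19*) were above 0 in all groups. The 4 red cell and 4 acinar markers summed to at most 0.282 and 0.295 RPKM in any sample, with *HBA2*, *HBB*, *CPA1* and *AMY2A* at 0 in all 12. The 6 leukocyte markers summed to 1.93 to 3.20 RPKM in SW1990 negative, 1.10 to 2.11 RPKM in SW1990 positive, 52.3 to 86.5 RPKM in CFPAC-1 negative and 53.9 to 65.6 RPKM in CFPAC-1 positive samples. Of these, *LYZ* (lysozyme) gave most of the CFPAC-1 sum, *MS4A1* was at 0 in all samples, and *CD14* was called lower in positive cells of both lines, by -1.97 (limma adjusted p = 0.000137) in SW1990 and -1.54 (adjusted p = 0.000977) in CFPAC-1 on the log2(RPKM + 0.1) scale. The 4 endothelial markers summed to 14.8 to 18.8 RPKM in SW1990 negative and 1.47 to 2.05 RPKM in SW1990 positive samples, and to 0.989 to 1.49 and 0.751 to 0.995 RPKM in the CFPAC-1 groups. *CDH5*, an endothelial cadherin gene, made up most of the SW1990 negative sum, with means of 15.6 and 1.33 RPKM in SW1990 negative and positive cells (-3.46, adjusted p = 2.52e-07). The part of these markers in the results was not tested.

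The antigens differed in level by more than 3 orders of magnitude of RPKM, and the leading antigen differed between the lines. In SW1990 negative cells *PSCA* made up 69.4% of the 246 RPKM summed over the members, and in SW1990 positive cells it made up 40.2% of 598 RPKM, ahead of *CEACAM6* at 28.1% and *TSPAN1* at 18.3%. In CFPAC-1 negative cells *TSPAN1* led with 51.4% of 458 RPKM, followed by *CEACAM6* at 25.2%. In CFPAC-1 positive cells *CEACAM6* at 41.9% and *TSPAN1* at 39.8% of 485 RPKM stood close together, and the samples of these genes overlapped. Without CFPAC-1 positive replicate 3, which was left out after the data were seen, *TSPAN1* led there too, at 49.2% of 371 RPKM against 27.9% for *CEACAM6*. *PSCA* in SW1990 positive cells lay above 99.3% of all genes of the table and *TSPAN1* in CFPAC-1 negative cells above 99.2%. *CEACAM7* and *CLDN18* were at the other end, at 0.0739 RPKM and 1.14 RPKM in their highest groups. These are bulk samples, so fewer cells expressing a gene and less RNA per cell cannot be told apart.

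**Figure D1:**
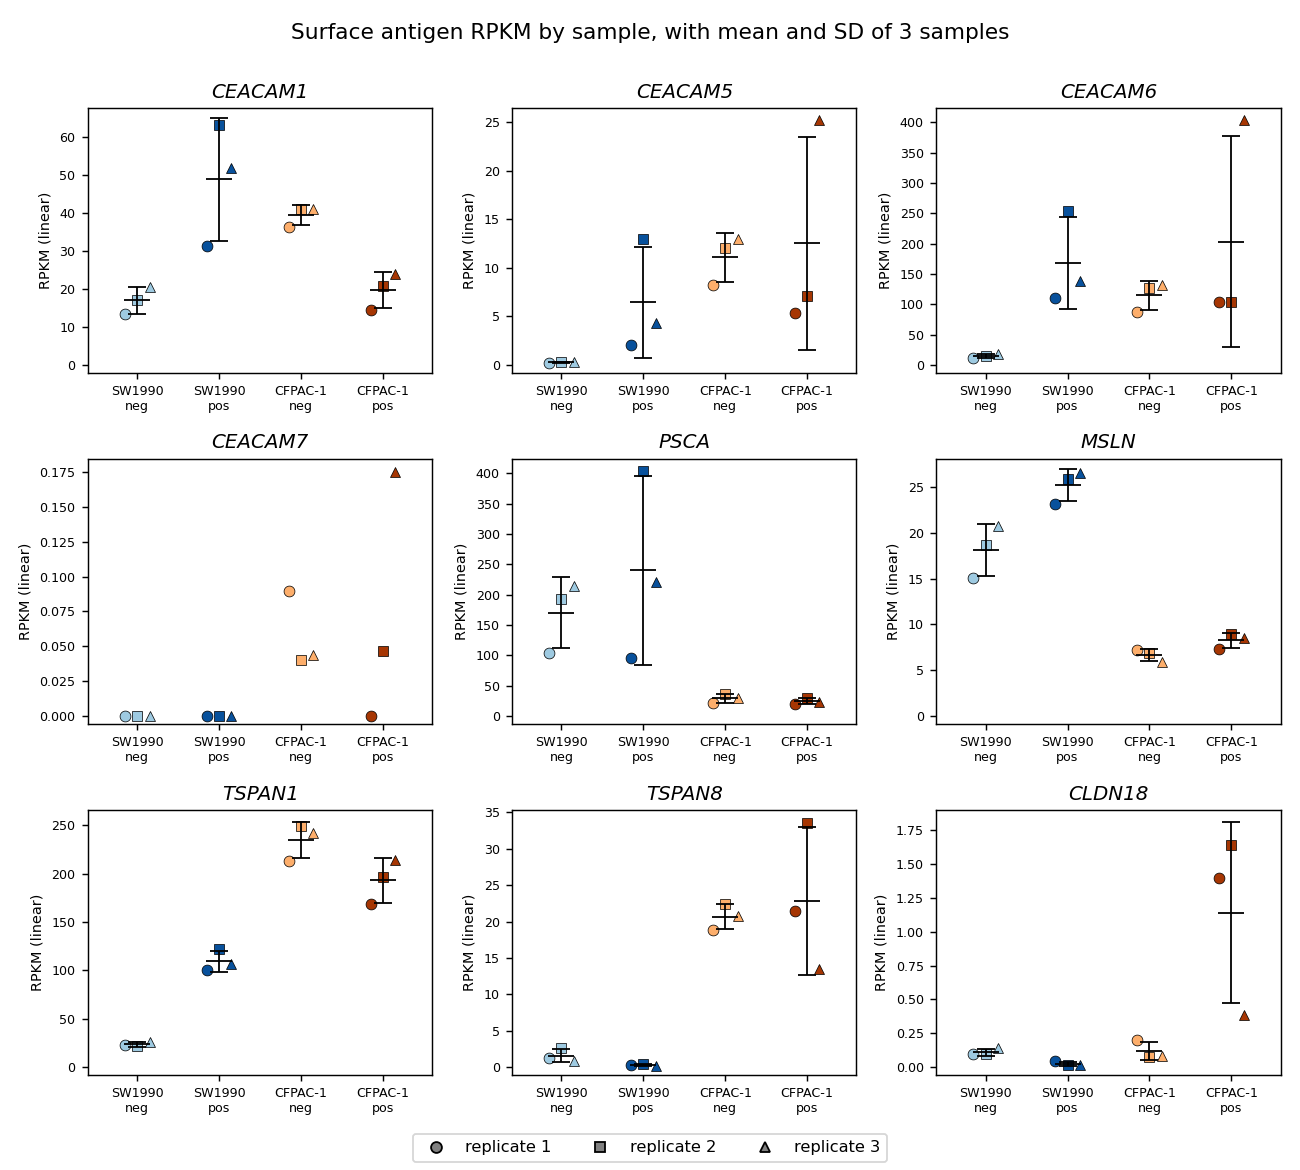
RPKM of each antigen gene on linear axes with a scale of its own, by group, with 1 point per sample and, except for *CEACAM7*, the mean and SD of 3 samples. *TSPAN1* rose from 21.3 to 26.1 RPKM in SW1990 negative to 99.9 to 122 RPKM in SW1990 positive samples without overlap, *PSCA* differed mainly between the lines, and CFPAC-1 positive replicate 3 stood above its group for *CEACAM5* and *CEACAM6*.

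*CEACAM5*, *CEACAM6* and *CEACAM7* lie close to each other on chromosome 19 (GRCh37, chr19:42212504-42234353 and chr19:42254885-42276116 on the plus strand, and chr19:42177231-42210895 on the minus strand). *CEACAM1* lies further away on the same chromosome (chr19:43011456-43065386, minus strand). Of all 100-base windows of their longest annotated transcripts, 0.531% of *CEACAM1* occurred exactly in *CEACAM3*, and 1.91% of *CEACAM5* and 2.04% of *CEACAM6* in an unnamed locus. Stretches that match with mismatches were not counted, so the share of reads that could align to more than 1 copy was not tested. The 250 bases before each gene start are shown because 3 of these 4 paralogs, *CEACAM1* among them, rose together in SW1990. They are RefSeq sequences of GRCh38.p14, a different build from that of the expression table, and the capitals mark the hexamer at the aligned position of CACGTG in *CEACAM5*.
CEACAM5 (chr19:41708376-41708625, plus strand): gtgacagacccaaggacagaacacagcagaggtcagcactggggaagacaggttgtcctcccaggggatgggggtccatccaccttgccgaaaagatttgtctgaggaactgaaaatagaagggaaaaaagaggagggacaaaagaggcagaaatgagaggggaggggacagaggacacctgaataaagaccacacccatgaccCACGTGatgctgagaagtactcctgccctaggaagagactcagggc
CEACAM6 (chr19:41755280-41755529, plus strand): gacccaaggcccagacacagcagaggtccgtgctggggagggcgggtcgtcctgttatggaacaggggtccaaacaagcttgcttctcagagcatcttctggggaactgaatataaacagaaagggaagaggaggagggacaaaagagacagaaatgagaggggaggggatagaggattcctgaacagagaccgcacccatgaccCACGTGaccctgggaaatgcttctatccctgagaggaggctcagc
CEACAM7 (chr19:41688271-41688520, minus strand): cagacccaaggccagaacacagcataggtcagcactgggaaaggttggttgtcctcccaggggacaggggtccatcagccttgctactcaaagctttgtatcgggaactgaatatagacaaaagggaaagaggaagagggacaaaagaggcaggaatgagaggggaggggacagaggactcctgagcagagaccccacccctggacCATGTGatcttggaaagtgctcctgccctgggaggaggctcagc
CEACAM1 (chr19:42528482-42528731, minus strand): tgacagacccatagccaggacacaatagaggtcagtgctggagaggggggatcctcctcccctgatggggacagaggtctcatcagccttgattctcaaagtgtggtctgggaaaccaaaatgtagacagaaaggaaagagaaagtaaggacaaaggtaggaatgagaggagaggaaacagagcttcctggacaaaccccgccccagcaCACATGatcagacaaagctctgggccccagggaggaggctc

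The aligned start regions were 78.5% identical between *CEACAM5* and *CEACAM6*, 83.6% between *CEACAM5* and *CEACAM7*, and 66.4% between *CEACAM5* and *CEACAM1*. CACGTG, the E box of the USF and MYC type and its own reverse complement, starts at position -46 of *CEACAM5* and -45 of *CEACAM6* relative to the gene start, and the same columns read CATGTG in *CEACAM7* and CACATG in *CEACAM1*. Of 35116 RefSeq start regions of this length, 6.34% hold CACGTG. A search on both strands for 2 further motifs found CACCTG, the E box of the ZEB and SNAI type, in *CEACAM5* and *CLDN18* and in 17.5% of all regions, and AACCGGTT in 0.117% of all regions and in 0 of the 7 members whose regions were read. *PSCA* was left out of these searches and *MSLN* had no region to read. In *CEACAM5* the CACCTG and CACGTG matches share no bases. These matches describe the letters only.

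*CEACAM1* rose with the GCTM-5 antigen in SW1990 and fell with it in CFPAC-1. The SW1990 negative samples had 13.5, 17.2 and 20.5 RPKM and the positive samples 31.4, 63.2 and 51.9 RPKM. The CFPAC-1 negative samples had 36.3, 41.0 and 41.0 RPKM and the positive samples 14.6, 20.7 and 23.9 RPKM. Positive and negative samples did not overlap in either line, and the order of the sorted populations was opposite. The group means were 17.0 ± 3.52 and 48.8 ± 16.1 RPKM (SD, n = 3) in SW1990, and 39.4 ± 2.68 and 19.7 ± 4.72 RPKM in CFPAC-1. On the log2(RPKM + 0.1) scale the change was 1.47 ± 0.25 (SE) in SW1990 (limma adjusted p = 0.000756) and -1.02 ± 0.25 in CFPAC-1 (adjusted p = 0.00734), and the difference between the changes was 2.50 ± 0.35 (adjusted p = 0.000344). The CFPAC-1 change lay at the 2-fold threshold: it was -0.82 (adjusted p = 0.0335) without CFPAC-1 positive replicate 1 and -0.99 without CFPAC-1 negative replicate 2 or 3, where it was no longer called. Across the groups *CEACAM1* was lowest in SW1990 negative and CFPAC-1 positive cells, whose samples overlapped, and highest in CFPAC-1 negative and SW1990 positive cells, whose samples overlapped too.

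*CEACAM5* and *CEACAM6* rose in SW1990 more than any other member. *CEACAM5*, the gene of carcinoembryonic antigen, had 0.216, 0.286 and 0.346 RPKM in SW1990 negative samples and 2.03, 12.9 and 4.36 RPKM in SW1990 positive samples. Every positive sample was above every negative one, but the positive samples were spread widely, with a mean of 6.44 ± 5.74 RPKM (SD, n = 3) against 0.283 ± 0.0647 RPKM. The negative level rested on 16 to 24 reads per sample. The change was 3.72 ± 0.62 on the log2(RPKM + 0.1) scale (adjusted p = 0.000732), and 3.02 (adjusted p = 0.00214) without SW1990 positive replicate 2, the highest sample, and 4.33 (adjusted p = 0.000324) without replicate 1, the lowest. In CFPAC-1 the negative samples had 8.23, 12.1 and 13.0 RPKM and the positive samples 5.34, 7.15 and 25.2 RPKM. There the first 2 positive samples lay below all negative samples and replicate 3 above all of them, and the change did not pass (-0.14 ± 0.62, adjusted p = 0.893). Without replicate 3 it was -0.81 (adjusted p = 0.296). The changes differed between the lines by 3.85 ± 0.88 (adjusted p = 0.00685). This difference was 4.52 (adjusted p = 0.00157) without CFPAC-1 positive replicate 3, 4.47 (adjusted p = 0.00221) without SW1990 positive replicate 1 and 3.16 (adjusted p = 0.0112) without SW1990 positive replicate 2.

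*CEACAM6*, which encodes another GPI-anchored adhesion molecule, was the CEACAM with the highest RNA level in every group but SW1990 negative cells, where *CEACAM1* was slightly higher. It had 11.4, 14.4 and 18.0 RPKM in SW1990 negative samples and 111, 254 and 139 RPKM in SW1990 positive samples. The groups were far apart, with means of 14.6 ± 3.32 and 168 ± 76.0 RPKM (SD, n = 3), and the change was 3.45 ± 0.46 on the log2 scale (adjusted p = 0.000151). In CFPAC-1 the negative samples had 87.9, 126 and 132 RPKM and the positive samples 103, 104 and 403 RPKM. Again only CFPAC-1 positive replicate 3 stood above the negative samples, and the change did not pass (0.52 ± 0.46, adjusted p = 0.410). It turned to -0.13 (adjusted p = 0.773) without that library. The difference between the lines was 2.93 ± 0.66 (adjusted p = 0.00642), and 3.58 (adjusted p = 0.000212) without that library. For both genes the order over the groups was the same at its low end: SW1990 negative cells were below all other samples, and the other groups overlapped with their neighbours.

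*CEACAM7*, a CEACAM of colon and pancreatic duct epithelium, was at the limit of the depth. It was listed at 0 in all 6 SW1990 samples, and 3 reads over a group would correspond to 0.0428 RPKM in SW1990 negative and 0.0487 RPKM in SW1990 positive cells. The CFPAC-1 negative samples had 0.0898, 0.0400 and 0.0438 RPKM and the CFPAC-1 positive samples 0, 0.0465 and 0.175 RPKM. These values stood for 0 to 2 reads per sample, and because the gene length behind them was recovered from these few samples, the true reads could be higher by a common factor. The gene fell under the filter on low values and was the only member without a test.

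Within a sample, the CEACAMs kept different proportions. *CEACAM6* over *CEACAM5* was 50.4 to 52.5 in SW1990 negative samples and 10.2 to 10.7 in CFPAC-1 negative samples. The SW1990 negative ratios rested on 16 to 24 *CEACAM5* reads per sample, so their narrow range is not read as a fixed proportion. The SW1990 positive samples had ratios of 19.7 to 54.5 and the CFPAC-1 positive samples ratios of 14.5 to 19.3. The groups did not overlap in CFPAC-1 (exact permutation p = 0.1, 2-sided, the smallest that 3 against 3 samples can give) and overlapped in SW1990 (exact permutation p = 0.4). *CEACAM6* over *CEACAM1* was 0.841 to 0.877 in SW1990 negative and 2.67 to 4.02 in SW1990 positive samples, and 2.42 to 3.21 in CFPAC-1 negative and 5.01 to 16.9 in CFPAC-1 positive samples. That ratio was thus higher in positive cells of both lines, by 1.98 on the log2 scale in SW1990 and 1.55 in CFPAC-1 (exact permutation p = 0.1 in each), although the genes themselves moved in different ways. The CFPAC-1 positive ratios were 7.07, 5.01 and 16.9 in replicates 1, 2 and 3, so the size of that change leaned on replicate 3. Replicates 1 and 2 were also above all CFPAC-1 negative samples. The ratios were chosen after the values were seen, and the exact permutation p of 0.1 became 0.133 after Benjamini-Hochberg adjustment over the 4 comparisons.

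**Figure D2:**
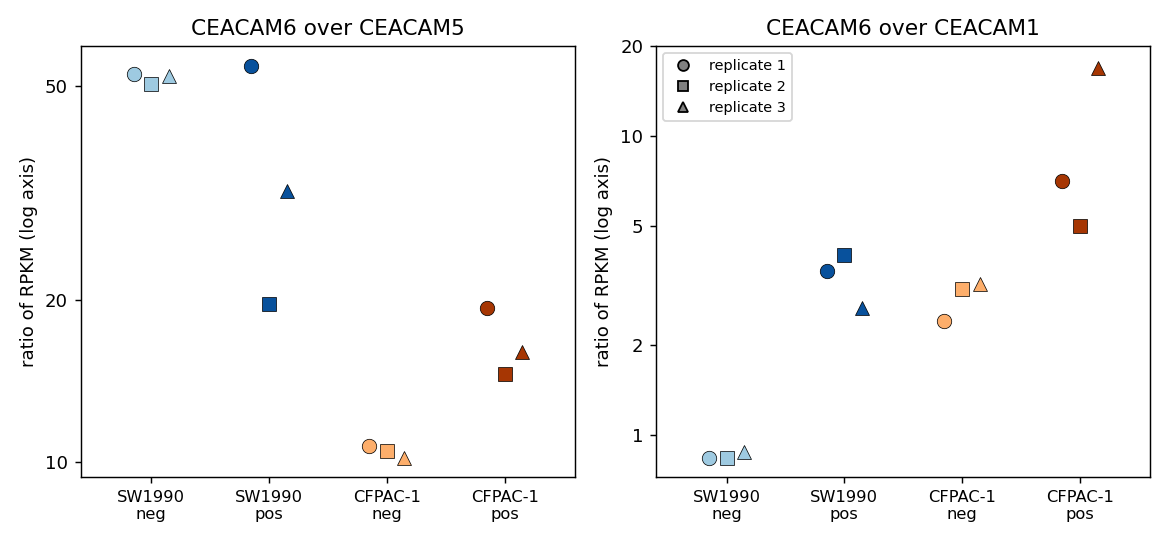
Ratio of *CEACAM6* to *CEACAM5* RPKM (left) and of *CEACAM6* to *CEACAM1* RPKM (right) in each of the 12 samples, on log axes, by group. The ratio to *CEACAM1* was 0.841 to 0.877 in SW1990 negative samples and higher in the positive samples of each line, and the ratio to *CEACAM5* separated the negative samples of the lines.

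*PSCA* (GRCh37, chr8:143751726-143764143, plus strand) differed between the lines and not detectably with the sort. SW1990 negative samples had 104, 193 and 214 RPKM and SW1990 positive samples 95.0, 404 and 221 RPKM. CFPAC-1 negative samples had 21.8, 35.8 and 30.3 RPKM and CFPAC-1 positive samples 19.1, 29.0 and 23.8 RPKM. The sorted populations overlapped in each line, while every SW1990 sample was above every CFPAC-1 sample. The change with the sort was 0.33 ± 0.43 in SW1990 (adjusted p = 0.636) and -0.28 ± 0.43 in CFPAC-1 (adjusted p = 0.655). In SW1990 it turned to -0.17 (adjusted p = 0.803) without SW1990 positive replicate 2. SW1990 exceeded CFPAC-1 by 2.50 ± 0.43 on the log2 scale in negative cells (adjusted p = 0.000254) and by 3.10 ± 0.43 in positive cells (adjusted p = 5.97e-05).

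*MSLN* (GRCh37, chr16:810734-818865, plus strand), which encodes the precursor of mesothelin, showed a small rank-ordered pattern. The samples had 15.0, 18.6 and 20.7 RPKM in SW1990 negative, 23.2, 25.9 and 26.5 RPKM in SW1990 positive, 7.19, 6.86 and 5.90 RPKM in CFPAC-1 negative, and 7.34, 8.94 and 8.51 RPKM in CFPAC-1 positive cells. No neighbouring groups overlapped in this order of levels, from CFPAC-1 negative through CFPAC-1 positive and SW1990 negative to SW1990 positive. The change with the sort stayed under 2-fold, at 0.48 ± 0.13 on the log2 scale in SW1990 (adjusted p = 0.0163) and 0.31 ± 0.13 in CFPAC-1 (adjusted p = 0.0858), so *MSLN* was called in neither line. The changes differed by 0.17 ± 0.19 (adjusted p = 0.530). The line difference was larger, 1.43 ± 0.13 in negative cells (adjusted p = 1.26e-06) and 1.60 ± 0.13 in positive cells (adjusted p = 7.21e-07). *PSCA* and *MSLN* were the only fitted members higher in SW1990 than in CFPAC-1 in both sorted populations.

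The tetraspanins went opposite ways in SW1990. *TSPAN1* (GRCh37, chr1:46640745-46651634, plus strand) had 23.0, 21.3 and 26.1 RPKM in SW1990 negative samples and 99.9, 122 and 106 RPKM in SW1990 positive samples. The groups were wide apart and each was tight, and the change of 2.21 ± 0.12 on the log2 scale had the smallest adjusted p of any member in SW1990 (1.62e-07). In CFPAC-1 it had 214, 249 and 242 RPKM in negative and 169, 196 and 214 RPKM in positive samples. These groups overlapped in 1 pair of samples, and the change of -0.29 ± 0.12 was not called (adjusted p = 0.0726). Without CFPAC-1 positive replicate 3 it was -0.37 (adjusted p = 0.0343), still under 2-fold. The difference between the lines was 2.50 ± 0.16 (adjusted p = 4.17e-06). SW1990 was lower than CFPAC-1 in each population, by -3.32 ± 0.12 in negative cells (adjusted p = 4.08e-10) and by -0.82 ± 0.12, under 2-fold, in positive cells (adjusted p = 6.78e-05).

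*TSPAN8* (GRCh37, chr12:71518865-71835678, minus strand), a tetraspanin of gut epithelium and of tumour vesicles, fell with the antigen in SW1990. It had 1.21, 2.62 and 0.851 RPKM in SW1990 negative samples, from 17 to 69 reads, and 0.274, 0.417 and 0.0999 RPKM in SW1990 positive samples, from 2 to 8 reads. All positive samples were below all negative samples. Summed over the samples the negative level was 6.26 times the positive one, with an exact 95% interval of 3.70 to 11.3 that covers counting error only. SW1990 negative replicate 2 held 69 of the 114 negative reads, and without it, as a choice made after the data were seen, the ratio was 3.98 (2.21 to 7.54). The change was -2.15 ± 0.43 on the log2 scale (adjusted p = 0.00258), but it was not called in the model of recovered reads (-2.49, adjusted p = 0.0427) or with a pseudocount of 1 (-0.97). In CFPAC-1 the levels were much higher and did not separate by sort: 18.9, 22.4 and 20.8 RPKM in negative and 21.4, 33.6 and 13.4 RPKM in positive samples (0.04 ± 0.43, adjusted p = 0.953). Without CFPAC-1 positive replicate 3 that change was 0.38 (limma adjusted p = 0.550). The difference between the lines was -2.20 ± 0.61 (adjusted p = 0.0194), and with quantile normalization, with a pseudocount of 1 and in the model of recovered reads its adjusted p was 0.0553, 0.0865 and 0.0588. SW1990 was below CFPAC-1 by -3.79 ± 0.43 in negative cells (adjusted p = 7.55e-06) and by -5.98 ± 0.43 in positive cells (adjusted p = 2.32e-07), the widest line difference of any member.

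*CLDN18* (GRCh37, chr3:137717577-137752497, plus strand) was low everywhere and rose with the antigen in CFPAC-1. CFPAC-1 negative samples had 0.198, 0.0755 and 0.0829 RPKM, from 6 to 14 reads, and CFPAC-1 positive samples 1.40, 1.64 and 0.387 RPKM, from 14 to 133 reads. All positive samples were above all negative samples, and CFPAC-1 positive replicate 3 was nearest to them. The change was 2.35 ± 0.43 on the log2 scale (adjusted p = 0.00153), 2.93 (adjusted p = 7.61e-05) without that library, and 0.89, no longer called, with a pseudocount of 1. Summed reads gave a ratio of 11.1, with an exact 95% counting interval of 7.42 to 17.3, and the ratio ranged from 9.29 to 16.4 when 1 sample was left out. In SW1990 the direction was the other way: 0.0938, 0.0946 and 0.140 RPKM in negative and 0.0426, 0.0162 and 0.0155 RPKM in positive samples. These groups did not overlap either, but they stood for 7 to 9 and 1 to 3 reads per sample, and the change of -0.75 ± 0.43 did not pass (adjusted p = 0.232). The summed reads were 4.22 times as many in negative cells after scaling to library totals, with a counting interval of 1.58 to 14.2, and 6.77 times (1.68 to 59.1) without SW1990 positive replicate 1. The lines differed in their change by -3.10 ± 0.61. *CLDN18* passed the filter on low values through CFPAC-1 positive cells, its highest group, so a difference there was built into its selection for the test, and its calls are given as a description.

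Of the 8 members fitted, 4 were called higher and 1 lower in SW1990 positive against negative cells at over 2-fold and an unadjusted p under 0.01 (*CEACAM1*, *CEACAM5*, *CEACAM6* and *TSPAN1*, and *TSPAN8*), where 12.1% of all 16236 genes fitted were called, 4.59% higher and 7.48% lower. Of the 8, 7 had no overlap between the sorted populations of SW1990, as did 43.3% of all genes. In CFPAC-1 1 member was called higher (*CLDN18*) and 1 lower (*CEACAM1*), where 9.78% of all genes were called, 5.65% higher and 4.13% lower, and 3 had no overlap, as did 48.5% of all genes. *CLDN18* was fitted only through its highest group, CFPAC-1 positive, and of the other 7 members 0 were called higher in CFPAC-1. The median change over the fitted members was 0.98 in SW1990 and -0.05 in CFPAC-1, against -0.04 and 0.05 over all genes fitted. A difference between the changes passed for 6 of 8 members, against 26.9% of all genes, 9.16% higher and 17.8% lower, with *CEACAM1*, *CEACAM5*, *CEACAM6* and *TSPAN1* higher and *TSPAN8* and *CLDN18* lower in SW1990 relative to CFPAC-1. Without *CLDN18* it passed for 5 of 7. No member was called in the same direction in both lines. Centring each sample on its median moved the split of calls over all genes from 917 higher and 671 lower to 724 and 858 in CFPAC-1, and from 1487 and 2887 to 1987 and 1988 for the difference, and it changed no member's call.

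**Figure D3:**
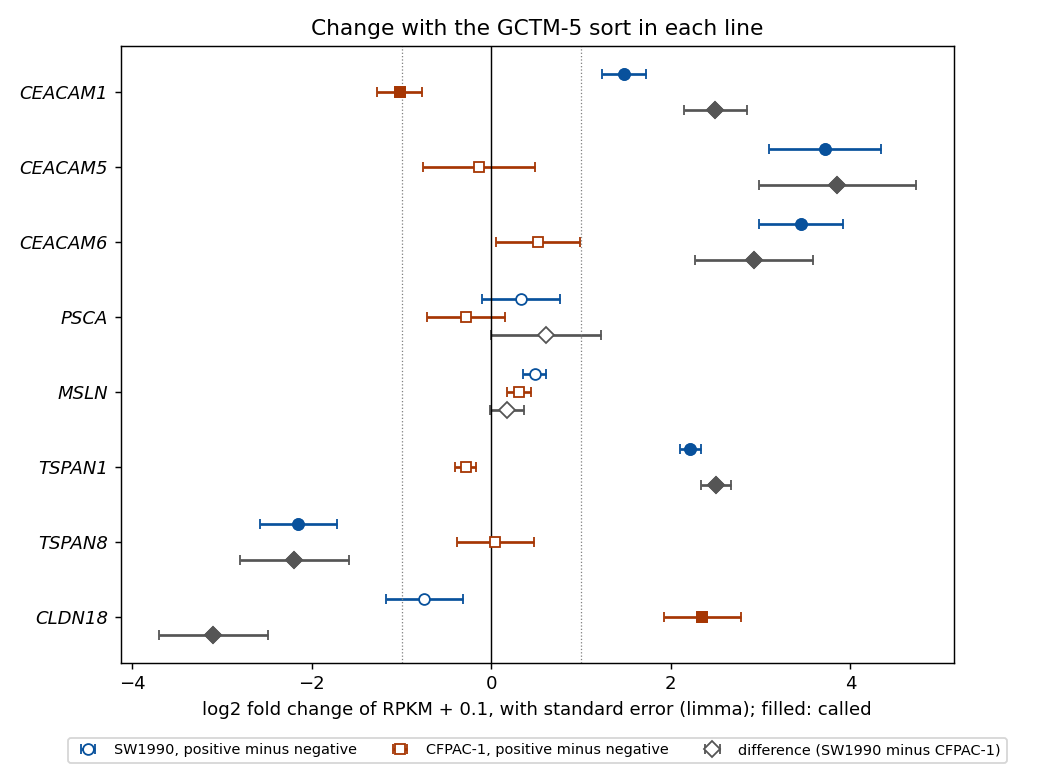
Change from GCTM-5 negative to positive cells in SW1990 (circles) and CFPAC-1 (squares) and the difference between these changes (diamonds), as log2 fold change of RPKM + 0.1 with its standard error from limma, for the 8 members fitted. Filled symbols were called, dotted lines mark 2-fold, and *CEACAM1* at 1.47 and -1.02 was the member called in opposite directions.

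Between the lines, 7 of 8 members were called in negative cells, 2 higher and 5 lower in SW1990, where 36.9% of all genes were called, 21.9% higher and 15.0% lower, and 7 had no overlap between the lines, as did 75.2% of all genes. *CEACAM5* was lower in SW1990 by -4.86 ± 0.62 (adjusted p = 2.03e-05), *CEACAM6* by -2.98 ± 0.46 (adjusted p = 0.000109) and *CEACAM1* by -1.22 ± 0.25 (adjusted p = 0.000779), besides the tetraspanins. *CLDN18* was the exception, with -0.03 ± 0.43 (adjusted p = 0.963). In positive cells 3 members were called higher and 2 lower in SW1990, where 28.5% of all genes were called, 14.8% higher and 13.7% lower, and 6 had no overlap, as did 63.9% of all genes. *CEACAM1* was now higher in SW1990, by 1.27 ± 0.25 (adjusted p = 0.000729), and *CLDN18* lower by -3.13 ± 0.43, in the contrast that holds the group through which it passed the filter. *CEACAM6* differed by -0.05 ± 0.46 (adjusted p = 0.936) and *CEACAM5* by -1.003 ± 0.62 (adjusted p = 0.178), so that the line difference these genes had in negative cells was not detectable in positive cells. Without CFPAC-1 positive replicate 3 these were 0.61 (adjusted p = 0.117) and -0.33 (adjusted p = 0.633). *CEACAM5* differed by -0.39 (adjusted p = 0.593) without SW1990 positive replicate 1 and by -1.70 (adjusted p = 0.0206) without replicate 2. The line comparisons share samples with the comparisons by sort.

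Members also moved together between samples of 1 group. SW1990 positive replicate 2 was the highest of its group for 6 of the 8 members above 0 (*CEACAM1*, *CEACAM5*, *CEACAM6*, *PSCA*, *TSPAN1* and *TSPAN8*) and replicate 1 the lowest for 6. CFPAC-1 positive replicate 3 was the highest for *CEACAM1*, *CEACAM5*, *CEACAM6* and *TSPAN1* and the lowest for *TSPAN8* and *CLDN18*. In SW1990 negative cells replicate 3 was the highest for 7 members. Replicate 1 was the lowest for 6 members in every group, with *CEACAM1*, *CEACAM5*, *CEACAM6* and *PSCA* among them each time. The labels do not say what samples of the same number share, and what set these samples apart was not tested.

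Epithelial and mesenchymal marker RNA moved with the sort beside the antigens. The 6 epithelial markers summed to 1595 to 1942 RPKM in SW1990 negative, 4360 to 4841 RPKM in SW1990 positive, 5411 to 6173 RPKM in CFPAC-1 negative and 6676 to 8162 RPKM in CFPAC-1 positive samples. In SW1990, 5 of 6 were called higher in positive cells and 0 lower. Of all genes fitted, 4.59% were called higher and 7.48% lower in SW1990, and 5.65% higher and 4.13% lower in CFPAC-1. In CFPAC-1 limma called 0 of the 6 epithelial markers, with 3 higher at an unadjusted p under 0.05, and voom also called 0. The adhesion gene *EPCAM* ranged from 18.0 to 27.2 RPKM in SW1990 negative and from 162 to 191 RPKM in SW1990 positive samples, and from 223 to 250.0 and from 187 to 258 RPKM in the CFPAC-1 groups. The 8 mesenchymal markers summed to 1293 to 1454 RPKM in SW1990 negative and 203 to 374 RPKM in SW1990 positive samples, and to 552 to 753 and 421 to 591 RPKM in the CFPAC-1 groups. Of the 6 fitted, 5 were called lower in SW1990 positive cells (4 to 5 over the alternatives). In CFPAC-1 positive cells 2 were called lower (1 to 3 over the alternatives, 3 by voom), and 4 were lower at an unadjusted p under 0.05. In both lines 0 were called higher, with *COL3A1* at 0 in all but the SW1990 negative samples. *ZEB1*, a repressor of epithelial genes, was 31.9 to 32.0 RPKM in SW1990 negative and 2.31 to 2.91 RPKM in SW1990 positive samples, and 5.94 to 7.65 and 2.48 to 2.56 RPKM in the CFPAC-1 groups. The part of this shift in the changes of the antigens was not tested.

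The related gene lists put the members in context, beside all genes fitted. Of all genes, 4.59% were called higher and 7.48% lower in SW1990, and 5.65% higher and 4.13% lower in CFPAC-1. The median change over all genes was -0.04 in SW1990 and 0.05 in CFPAC-1. Of 24 other carcinoma surface antigens fitted, 11 were called higher in SW1990 positive cells, among them the adhesion gene *EPCAM* and the claudin gene *CLDN4*, 2 lower (*CD44* and *L1CAM*), and 1 higher (*F3*) and 0 lower in CFPAC-1, and the median change was 0.40 in SW1990 and -0.26 in CFPAC-1. Lower in CFPAC-1 at an unadjusted p under 0.05 were 8 of these, and voom called 2 lower. *F3*, which encodes tissue factor, was called in both lines: its mean was 183 ± 23.8 and 691 ± 66.8 RPKM (SD, n = 3) in SW1990 negative and positive cells and 140 ± 19.5 and 475 ± 144 RPKM in CFPAC-1, with changes of 1.92 (adjusted p = 1.53e-05) and 1.73 (adjusted p = 8.37e-05). Of 26 other tetraspanins, 2 were called higher and 3 lower in SW1990, and 2 higher and 0 lower in CFPAC-1, with medians of -0.04 and -0.31. Lower in CFPAC-1 at an unadjusted p under 0.05 were 11, and voom called 1 lower. *TSPAN18* was called in both lines, by 2.85 (adjusted p = 1.07e-06) and 1.35 (adjusted p = 0.000457), with 2.32 ± 0.537 RPKM in SW1990 negative, 17.3 ± 3.07 RPKM in SW1990 positive, 1.93 ± 0.366 RPKM in CFPAC-1 negative and 5.08 ± 0.898 RPKM in CFPAC-1 positive cells.

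Of 19 other genes of the LY6/uPAR family, the family of *PSCA*, 3 were called higher and 2 lower in SW1990, and 3 higher and 1 lower in CFPAC-1, with medians of 0.0099 and 0.41. Over all genes fitted 4.59% were called higher and 7.48% lower in SW1990, and 5.65% higher and 4.13% lower in CFPAC-1, with medians of -0.04 and 0.05. *LY6D*, a GPI-anchored surface marker of stratified epithelium, was called in both lines, by 3.70 (adjusted p = 1.57e-06) and 1.50 (adjusted p = 0.00166). Its level was 16.8 ± 5.61 and 219 ± 64.5 RPKM in SW1990 negative and positive cells, and 1.00 ± 0.229 and 3.02 ± 0.669 RPKM in CFPAC-1. Of the 28 genes for the synthesis and transfer of the GPI anchor, 0 were called higher and 1 lower (*PGAP1*) in SW1990, and 1 higher (*PIGW*) and 0 lower in CFPAC-1, with medians of 0.016 and 0.11. *CEACAM5* and *CEACAM6*, which carry that anchor, were called in SW1990, and 27 of the 28 genes that make and attach it were not, although 5 of these 27 were higher and 3 lower at an unadjusted p under 0.05. Only 12.1% of all genes fitted were called in SW1990, so few calls in this list are no result about the anchor genes. Of 9 other CEACAM genes in the table only *CEACAM19* and *CEACAM22P* passed the filter, and limma called neither by sort in either line, with *CEACAM22P* higher in SW1990 at an unadjusted p under 0.05 and 0 called by voom. No listed gene was called in opposite directions in the lines at over 2-fold and an unadjusted p under 0.01. At over 2-fold and a limma adjusted p under 0.05, *LY6G6C* and *TMPRSS4* passed in opposite directions. *LY6G6C* (2.83 and -2.43), *TMPRSS4* (3.48 and -1.17) and *SLC44A4* (3.36 and -1.10), named after their values were seen, were called higher in SW1990. In CFPAC-1 they missed the call on the unadjusted p (adjusted p = 0.0335, 0.0382 and 0.0707). Their changes differed between the lines by 5.26 (adjusted p = 0.00519), 4.65 (adjusted p = 0.000131) and 4.47 (adjusted p = 0.000360).

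**Figure D4:**
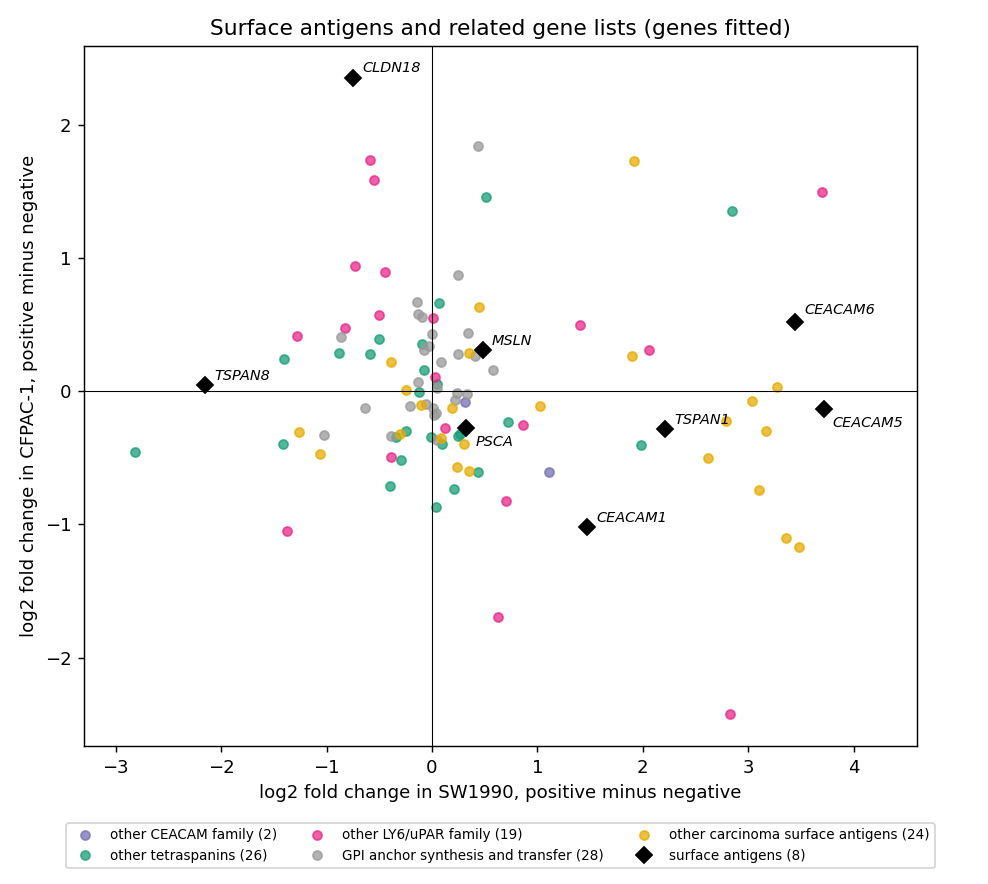
Log2 fold change from GCTM-5 negative to positive cells in SW1990 (x axis) and CFPAC-1 (y axis), from limma on log2(RPKM + 0.1), for the 8 members (diamonds) and the fitted genes of 5 related lists (circles), with numbers of genes in the key. *CEACAM5*, *CEACAM6* and *TSPAN1* lie to the right near the x axis among other carcinoma surface antigens, and *CLDN18* lies alone at 2.35 on the y axis.

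For each member with a mean of at least 1 RPKM, the 3 genes with the most similar pattern were sought by Pearson correlation of log2(RPKM + 0.1) over the 12 samples and 13267 genes. These correlations are a description, since the samples fall into 4 groups that all genes share. *TSPAN1* was followed most closely, by *CLDN9* (r = 0.998) and *FAM108C1* (r = 0.996). *MSLN* went with *ST3GAL4* (r = 0.988), *SERPINB2* (r = 0.986) and *NMB* (r = 0.985), and *PSCA* with *PRR15* (r = 0.987), *LY6E* (r = 0.985) and *PIGS* (r = 0.983). *TSPAN8* went with *CCDC152* (r = 0.986), *BICC1* (r = 0.984) and *ADD3* (r = 0.984). The CEACAMs had lower values: *CEACAM5* with *PRRG2* (r = 0.969), *CEACAM6* with *S100A16* (r = 0.963), *ADAP1* (r = 0.960) and *SLC20A2* (r = 0.960), and *CEACAM1* with *FOXJ1* (r = 0.959) and *KCNK6* (r = 0.942). No member was among the genes nearest to another member, so the paralogs *CEACAM5* and *CEACAM6* each had closer matches elsewhere.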

How the data were processed

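RNA-seq of 12 samples in 4 groups was re-analysed. Reads were aligned by the authors to hg19 (GRCh37), and QuasR gave their deposited RPKM, scaled for library size and gene length only. Their counting annotation, use of strand and treatment of reads that match several genes are not given in the sources used here, and the TCC test they name was not used.

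The 16236 of 23346 genes (8 of 9 members) that averaged 0.1 RPKM or more were fitted on log2(RPKM + 0.1) with limma 3.58.1 in R 4.3.3 (4 group means, eBayes with trend, 2-sided, Benjamini-Hochberg over all genes fitted). A fold change on this scale understates the change of low genes. A gene was called at over 2-fold and an unadjusted p under 0.01, and a difference between lines at an adjusted p under 0.05. P-values measure the spread between samples of a group, pooled over the 4 groups and without pairing. Whether positive and negative samples of the same number came from the same sort is not given.

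Library totals and whole reads were recovered from the RPKM steps of single-exon genes (GENCODE 44 lengths, tolerance 0.01 reads). Reads came out whole for all 19654 genes above 0. In simulated data 12 of 12 totals were recovered. The totals, 9969697 to 26159330 reads, bound the precision of low genes, and intervals (exact, 95%) and the 3-read limit cover counting error only.

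Samples were grouped by line and sort. Named genes are the members, list genes called in both lines, and the 3 genes most correlated with each member, of which some are not reported here. Other list genes, named beside small counts or as examples, were chosen after their values were seen. Members, lists and tests were chosen with earlier results of these data known. Alternatives were pseudocounts, filters, median centring, quantile normalization, no trend, an adjusted p, ratios of mean RPKM, limma voom with TMM on recovered reads, each line alone, a replicate block, and each sample left out. Start regions are from RefSeq (GRCh38.p14), matched by symbol, read for 7 of 9 members and aligned with mafft 7.526; coordinates are from GENCODE 44 on GRCh37. Python 3.11.15, pandas 2.3.3, numpy 2.4.6, scipy 1.17.1 and matplotlib 3.10.9 were used.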

Additional observations from a re-analysis of the deposited data

Results flagged for a closer look

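The change with the GCTM-5 sort differed between SW1990 and CFPAC-1 for 6 of the 8 members tested, by limma's test of the difference itself (log2 change in SW1990 minus log2 change in CFPAC-1, 3 samples per group), where 26.9% of all genes differed. One of them, *CLDN18*, passed the filter on low values only through CFPAC-1 positive cells, which leaves 5 of the other 7. *CEACAM5* differed by 3.85 (adjusted p = 0.00685), from an increase in 3 of 3 SW1990 positive samples and a mixed pattern in CFPAC-1. *CEACAM6* differed by 2.93 (adjusted p = 0.00642) in the same way. *TSPAN1* differed by 2.50 (adjusted p = 4.17e-06), with an increase in 3 of 3 SW1990 positive samples alone. *CEACAM1* differed by 2.50 (adjusted p = 0.000344), higher in 3 of 3 SW1990 positive and lower in 3 of 3 CFPAC-1 positive samples. *TSPAN8* differed by -2.20 (adjusted p = 0.0194), from a decrease in SW1990 that rests on 2 to 8 reads per positive sample. *CLDN18* differed by -3.10, a difference that its selection for the test built in. It was higher in 3 of 3 CFPAC-1 positive samples at 1.14 ± 0.666 RPKM (SD) and lower in SW1990 at 1 to 3 reads per positive sample.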

How the results depend on the processing

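Of 915 recomputed changes of the members, 888 kept their direction and their side of the threshold, 11 lost a call and 16 turned, and no call was gained. The counts of members called stayed within 1.5 times of 5 in SW1990, 6 for the difference, and 7 and 5 between lines in every alternative run, and were 5, 2, 6, 7 and 5 without CFPAC-1 positive replicate 3. In CFPAC-1 the 2 calls became 0 with a pseudocount of 1, and 1 with the filter at a mean of 1 RPKM, which drops *CLDN18*, and 1 with ratios of mean RPKM, and they ranged from 1 to 2 when 1 sample was left out (1 without CFPAC-1 negative replicate 2 or 3 or positive replicate 1). With a pseudocount of 1 *CLDN18* and *CEACAM1* lost their calls, and otherwise *CEACAM1* did. Values that turned had not passed. When 1 sample was left out, *PSCA* in SW1990 ranged from -0.17 to 0.88, and in CFPAC-1 *CEACAM5* ranged from -0.81 to 0.30, *CEACAM6* from -0.13 to 0.85 and *TSPAN8* from -0.28 to 0.38. Between lines, *CLDN18* in negative cells ranged from -0.16 to 0.22 and *CEACAM6* in positive cells from -0.39 to 0.61. *CEACAM5* in CFPAC-1 was 0.18 as a ratio of mean RPKM, *TSPAN8* in CFPAC-1 was -0.055 with median centring and -0.057 with quantile normalization, and *CEACAM6* between lines in positive cells was 0.030 with quantile normalization. The cause was not tested. Median centring moved the median of all genes from 0.19 to 0.0060 between lines in negative cells and from -0.15 to 0.00081 for the difference.

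Same-numbered samples correlated at 0.185, 0.0163 and 0.116 in SW1990 and -0.0195, 0.00126 and -0.0593 in CFPAC-1 (deviations from group means), so the numbers were not taken as pairs, and not every sample correlated best with its own number. A replicate block kept the counts at 5, 2 and 6, with *CEACAM1* at -1.02 in CFPAC-1 (adjusted p = 0.00208). It lowered the standard error of each fitted member's change by sort, for *PSCA* from 0.434 to 0.202 and for *TSPAN8* from 0.430 to 0.235. With the block *PSCA* still did not pass (limma adjusted p = 0.281 in SW1990 and 0.318 in CFPAC-1). Line contrasts could not be fitted with that block. Counts in the related lists were small and moved too, by sort: in SW1990 other tetraspanins lower 1 to 4 (as reported, 3), LY6/uPAR lower 1 to 3 (as reported, 2), GPI anchor lower 0 to 2 (as reported, 1), other surface antigens lower 1 to 2 (as reported, 2); in CFPAC-1 LY6/uPAR higher 1 to 5 (as reported, 3) and lower 0 to 3 (as reported, 1), other tetraspanins higher 1 to 3 (as reported, 2) and lower 0 to 1, mesenchymal markers lower 1 to 3 (as reported, 2), other surface antigens lower 0 to 2. Depth limits *CEACAM7*, *CLDN18* and *TSPAN8* in SW1990.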
